A study of Mus musculus with 24 samples.

Results

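The matrix metalloproteases (MMPs), the ADAMTS enzymes with their ADAMTS-like relatives, and the tissue inhibitors of metalloproteases (TIMPs) were followed through primary neural stem cell cultures kept in low or room-air oxygen. The members were the probe sets with a single gene symbol that begins with Mmp or Timp and a number, or with Adamts, and the probe set with the highest mean over all arrays stood for each gene. This gave 49 genes, 22 MMPs, 18 ADAMTS enzymes, 5 ADAMTS-like genes and 4 TIMPs, of 19938 genes with such a probe set. Mmp15 and Adamts2 were not analysed here.

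Cells came from the fetal cortex or midbrain (mesencephalon) of C57Bl/6 mice at embryonic day 14 and grew in expansion medium for either 48 h or 13 d, under 21% O2 or under a mixture of 3% O2, 5% CO2 and 92% N2. Region, time and oxygen made 8 groups of 3 arrays, and the labels name no transgene or drug. The labels do not say whether the 3 arrays of a group came from separate litters or cultures, so the p-values reflect array-to-array spread alone, part of which may be technical. These were mixed primary cultures, in which more cells of a type and more RNA per cell cannot be told apart.

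MMPs and ADAMTS enzymes are zinc-dependent proteases that cut the extracellular matrix. Most MMPs are secreted as inactive precursors, while the membrane-type MMPs act at the cell surface. ADAMTS enzymes carry thrombospondin repeats that bind matrix, and their best-known substrates are the chondroitin sulphate proteoglycans that fill the matrix of the developing brain, and procollagens. ADAMTS-like proteins have the repeats without the protease. TIMPs block the active site of these enzymes, and Timp2 also holds the Mmp2 precursor to Mmp14 so that it can be activated.

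Values were log2 intensities normalized by the authors, from 4.65 to 14.49, with array medians of 7.35 to 7.42 and correlations of 0.986 to 0.999 within groups. By correlation over all tested probe sets, 12 of 12 cortex arrays resembled midbrain of the other labelled time more than midbrain of their own, so cortex times are given as labelled, and results that set cortex against midbrain are also given with the cortex times crossed. The 6 midbrain 13 d arrays were array run 1 and the other 18 were run 2. For levels of midbrain 13 d, run and group cannot be told apart, and those levels were not tested against other groups. The lowest array weight, 0.225, was that of replicate 1 of cortex labelled 48 h at 21% O2. Replicate 2 of midbrain 13 d at 3% O2 also had a low weight (0.358). So did replicate 1 of midbrain 48 h at 21% (0.303) and replicate 1 of cortex labelled 48 h at 3% (0.312). Neural stem and radial glia markers, such as Nes and Sox2, averaged 9.85 to 11.34 by array over 12 genes, and neuron markers averaged 8.20 to 11.86 over 14. A gene rose or fell where limma's Benjamini-Hochberg adjusted p was under 0.05 over 23410 probe sets. Changes are log2 differences ± SE from 3 arrays a group, and levels are means ± SD.

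Promoters are shown first for 6 genes on which the oxygen results turn, the 3 proteases that rose most in midbrain 13 d and the 3 TIMPs that passed there. They were chosen after their values were seen, and not every gene with a response of their size is shown. Each runs 5′ to 3′ on the gene's strand from 250 bases before to 50 bases after the start of a RefSeq transcript (GRCm38.p6). Capitals mark the core of the hypoxia response element, ACGTG or GCGTG on either strand, which hypoxia-inducible factors bind. The windows were chr14:54431348-54431647 on the plus strand for Mmp14, chr16:85803064-85803363 on the minus strand for Adamts1, chr10:61273370-61273669 on the minus strand for Adamts14, chrX:20869916-20870215 on the plus strand for Timp1, chr11:118355362-118355661 on the minus strand for Timp2 and chr10:86300162-86300461 on the plus strand for Timp3.
Mmp14: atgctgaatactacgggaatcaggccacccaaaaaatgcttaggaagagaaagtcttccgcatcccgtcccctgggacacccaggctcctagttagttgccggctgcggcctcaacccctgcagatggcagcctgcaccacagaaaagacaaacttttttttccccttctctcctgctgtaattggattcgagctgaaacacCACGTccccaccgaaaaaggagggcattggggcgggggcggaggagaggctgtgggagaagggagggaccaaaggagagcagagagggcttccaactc
Adamts1: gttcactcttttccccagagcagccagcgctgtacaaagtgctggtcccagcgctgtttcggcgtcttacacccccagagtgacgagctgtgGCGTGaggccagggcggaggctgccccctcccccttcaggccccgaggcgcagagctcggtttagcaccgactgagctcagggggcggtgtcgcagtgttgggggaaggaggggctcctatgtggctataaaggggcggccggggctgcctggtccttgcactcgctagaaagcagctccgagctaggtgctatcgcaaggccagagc
Adamts14: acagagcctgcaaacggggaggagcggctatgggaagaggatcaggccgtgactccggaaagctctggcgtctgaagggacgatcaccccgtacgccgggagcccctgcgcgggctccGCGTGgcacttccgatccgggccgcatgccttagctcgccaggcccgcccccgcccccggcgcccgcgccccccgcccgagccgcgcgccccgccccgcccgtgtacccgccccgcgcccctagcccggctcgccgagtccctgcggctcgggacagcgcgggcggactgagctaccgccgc
Timp1: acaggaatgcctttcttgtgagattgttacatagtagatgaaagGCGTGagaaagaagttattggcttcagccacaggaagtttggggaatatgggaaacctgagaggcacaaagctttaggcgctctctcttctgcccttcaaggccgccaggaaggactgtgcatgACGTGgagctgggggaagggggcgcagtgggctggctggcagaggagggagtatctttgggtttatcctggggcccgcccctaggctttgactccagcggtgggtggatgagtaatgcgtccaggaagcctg
Timp2: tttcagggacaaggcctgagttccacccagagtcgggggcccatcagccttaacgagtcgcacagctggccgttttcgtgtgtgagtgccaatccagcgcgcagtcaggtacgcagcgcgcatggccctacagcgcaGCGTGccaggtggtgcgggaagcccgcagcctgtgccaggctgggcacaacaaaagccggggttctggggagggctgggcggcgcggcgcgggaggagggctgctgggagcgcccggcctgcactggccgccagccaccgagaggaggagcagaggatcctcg
Timp3: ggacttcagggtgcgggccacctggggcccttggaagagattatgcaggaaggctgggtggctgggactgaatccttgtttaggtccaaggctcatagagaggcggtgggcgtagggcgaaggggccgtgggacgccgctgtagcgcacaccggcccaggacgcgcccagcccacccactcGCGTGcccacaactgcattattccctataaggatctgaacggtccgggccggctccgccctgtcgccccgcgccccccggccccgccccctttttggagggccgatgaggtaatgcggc

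The first 4 of these genes rose in 3% O2 in midbrain 13 d, and the last pair fell. Promoters were found for 34 of the 49 genes. The core was present in 7 of 8 genes that rose there, in 2 of 2 that fell and in 8 of 24 that did not pass, against 43.8% of all 32851 promoter windows of 300 bases. Over the windows of the members the share was 45.9%. A GC box (GGGCGG on either strand) was present in 8 of the 8, in 2 of the 2 and in 10 of the 24, against 35.7% of all windows and 54.1% of the members' windows. The 24 include the 10 MMP genes of the chromosome 9 run described below. Of these only Mmp7 and Mmp27 had the core and none had a GC box, which lowers both counts among the 24. The counts are of genes with a match in any window, while the percentages are of windows. Only 2 of the 5 genes that fell had a promoter, so whether either motif separates the directions cannot be read from these counts. A match of letters is not a site known to be bound.

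The second set comes from the run of MMP genes on mouse chromosome 9, which holds the collagenases, stromelysins 1 and 2 (Mmp3 and Mmp10), matrilysin (Mmp7) and the metalloelastase (Mmp12), several of them known for AP-1 control. The AP-1 motif, TGANTCA on either strand, was present in 8 of these 10 genes and in 7.81% of all promoter windows. The 31 bases around it are given, with the motif in capitals, from promoter windows that lie between base 7272264 (Mmp13) and base 7692139 (Mmp7) of chromosome 9.
Mmp1a: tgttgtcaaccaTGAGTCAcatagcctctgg
Mmp1b: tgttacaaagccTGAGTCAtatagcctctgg
Mmp13: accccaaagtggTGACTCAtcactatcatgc
Mmp3: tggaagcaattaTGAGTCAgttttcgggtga
Mmp7: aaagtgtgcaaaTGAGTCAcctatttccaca
Mmp10: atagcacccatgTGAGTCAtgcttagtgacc
Mmp12: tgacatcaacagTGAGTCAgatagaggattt
Mmp20: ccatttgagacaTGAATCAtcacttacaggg

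The other members of the run were Mmp8 and Mmp27. All 10 probe sets lay below the median brightness of the tested probe sets, and without Mmp12 their group means ran from 5.19 to 6.59. In midbrain 48 h, midbrain 13 d, cortex labelled 48 h and cortex labelled 13 d, 0 of 10 passed an oxygen test, where 1.19%, 23.9%, 12.3% and 0.607% of all tested probe sets passed in that order. Their responses ran from -0.19 to 0.15. Whether such values lie above background cannot be read from normalized data, and Mmp1a and Mmp1b are close copies whose probes may share transcripts.

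Oxygen moved the family most in midbrain cultures of 13 d. There 17 of 49 genes (34.7%) passed, 12 higher and 5 lower in 3% O2, against 23.9% of all tested probe sets (11.2% higher, 12.7% lower). Adamts14, Adamts1 and Mmp14 rose most, and among the inhibitors Timp1 rose while Timp2 and Timp3 fell. In cortex labelled 48 h 6 genes (12.2%) passed, 4 higher and 2 lower, against 12.3% of all (6.25% higher, 6.08% lower), so that count was at the background. In midbrain 48 h 0 genes passed, against 1.19% of all (0.701% higher, 0.491% lower), with 3 at an unadjusted p under 0.05. In cortex labelled 13 d 0 passed, against 0.607% of all (0.543% higher, 0.0641% lower), again with 3 at an unadjusted p under 0.05. The median response of the members was 0.06 in midbrain 13 d, beside -0.01 over all probe sets, and 0.04 in cortex labelled 48 h, beside 0.00. Over the 4 oxygen comparisons, with 1 probe set for each gene, 18 genes passed at least once, 31 never passed, and 0 passed in opposite directions.

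**Figure D1:**
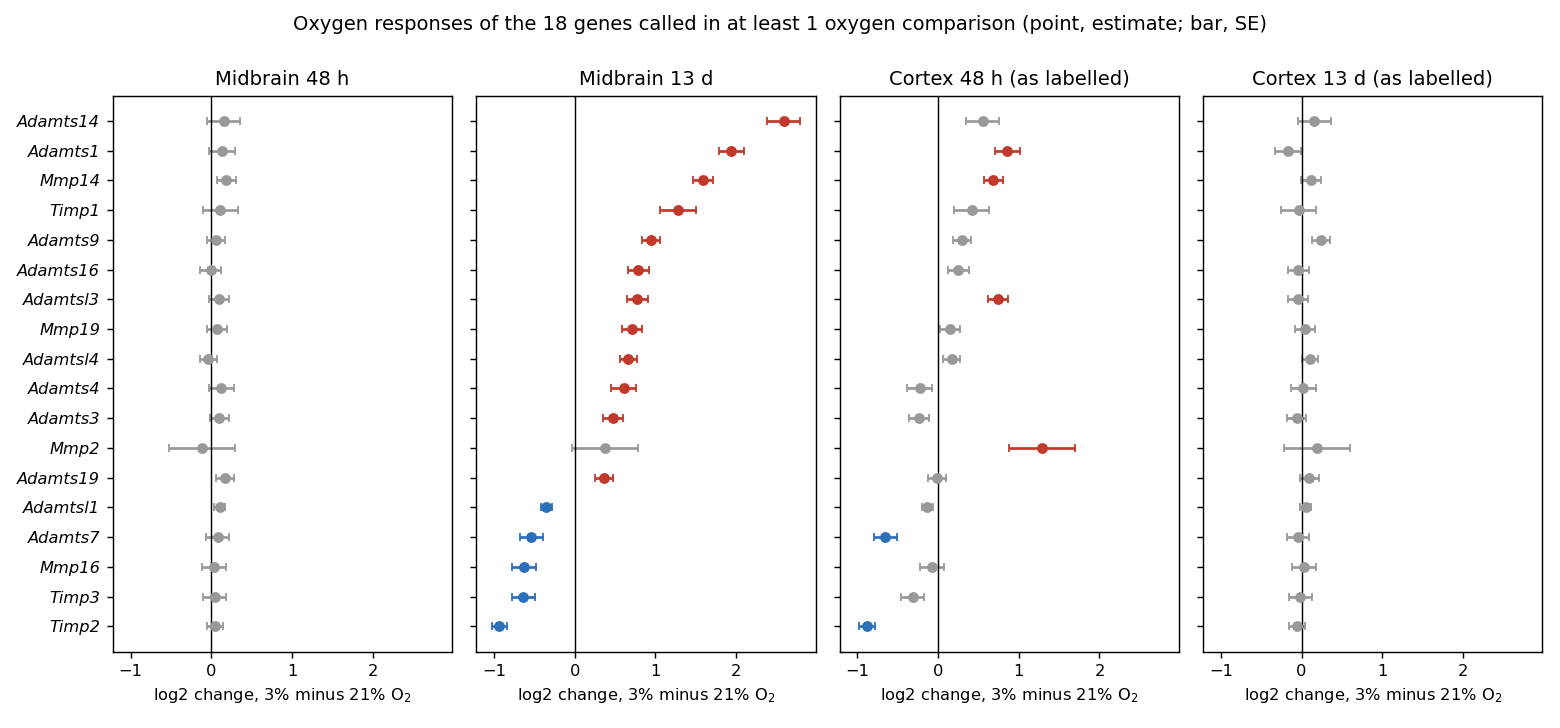
Each panel plots, for 1 of the 4 oxygen comparisons, the log2 change (3% minus 21% O2, x axis) of the 18 genes that passed in at least 1 of them. Points are estimates and bars SE; red passed higher, blue passed lower and grey did not pass. Adamts14 reached 2.59 in midbrain 13 d, Timp2 fell in midbrain 13 d and cortex labelled 48 h, and all points of the other panels are grey.

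Among membrane-type MMPs, Mmp14, which cuts fibrillar collagen at the cell surface and activates Mmp2, read 9.10, 9.07 and 9.12 in midbrain 13 d at 21% O2 and 10.82, 10.42 and 10.82 at 3% O2. The lowest array at 3% was over 1 log2 unit above the highest at 21%. The rise was 1.59 ± 0.12, or 3.01-fold (limma, adjusted p 1.59e-08). Mmp14 in cortex labelled 48 h read 9.74, 10.05 and 10.03 at 21% and 10.53, 10.74 and 10.60 at 3%. These groups did not overlap either, and the rise was 0.68 ± 0.12 (limma, adjusted p 0.000702). It changed by 0.19 ± 0.12 in midbrain 48 h (95% interval -0.07 to 0.44) and by 0.12 ± 0.12 in cortex labelled 13 d (-0.13 to 0.37), neither of which passed.

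Mmp16, a membrane-type enzyme of neural tissue, went the other way. In midbrain 13 d it read 9.47, 9.19 and 9.29 at 21% O2 and 8.85, 8.40 and 8.81 at 3%, with no overlap. It fell by 0.63 on the log2 scale (SE 0.15, limma, adjusted p 0.00332). Its changes of 0.04 ± 0.15 in midbrain 48 h, -0.07 ± 0.15 in cortex labelled 48 h and 0.03 ± 0.15 in cortex labelled 13 d did not pass. Mmp24, the membrane-type MMP best known from neurons, had a response of -0.24 ± 0.11 in midbrain 13 d (limma, adjusted p 0.123). With the replicate number as a block the same change passed (limma, adjusted p 0.0488). That pairing was not clear for number 1 of midbrain 13 d (correlation 0.123, against 0.164 with another number). Mmp17 and Mmp25, which are anchored by a lipid, did not pass in any oxygen comparison as tested.

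The gelatinases differed from each other. Mmp2, whose precursor is activated by Mmp14, read 10.37, 8.22 and 9.37 in cortex labelled 48 h at 21% O2 and 10.67, 10.56 and 10.60 at 3%. The 3% arrays lay close together just above the top of a wide 21% group. The rise of 1.29 ± 0.41 (limma, adjusted p 0.0445) was lost in a fit of the compared arrays alone (limma, adjusted p 0.269), with a variance trend and robust moderation (0.0611), and in 5 of 6 fits that left out 1 array of the comparison. Without replicate 2 of the 21% group it was 0.74 (0.258), and without replicate 3 of that group 1.31 (0.106). Without replicate 1, 2 or 3 of the 3% group it was 1.26, 1.31 and 1.29, with adjusted p of 0.112, 0.0883 and 0.0863. Its change in midbrain 13 d was 0.38 ± 0.41 (adjusted p 0.632), with overlap. Mmp9 was dim throughout, 6.09 to 6.51 by array, and its 4 responses lay between 0.01 and 0.13, none past the threshold.

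Of the MMPs outside these classes, Mmp19, a secreted basement membrane protease, rose in midbrain 13 d from 6.27, 6.31 and 6.35 to 7.32, 6.51 and 7.24. Replicate 2 at 3% O2 lay nearest the 21% arrays, and the groups did not overlap. The rise was 0.71 ± 0.12 (limma, adjusted p 0.000238). Mmp11, or stromelysin 3, differed by 0.28 ± 0.07 both in midbrain 48 h (limma, adjusted p 0.0651) and in cortex labelled 13 d (0.0975), and by -0.06 ± 0.07 in midbrain 13 d. It did not pass as tested, but in midbrain 48 h it passed with quantile normalization, median centring or array weights (limma, adjusted p 0.0338, 0.0496 and 0.0418).

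**Figure D2:**
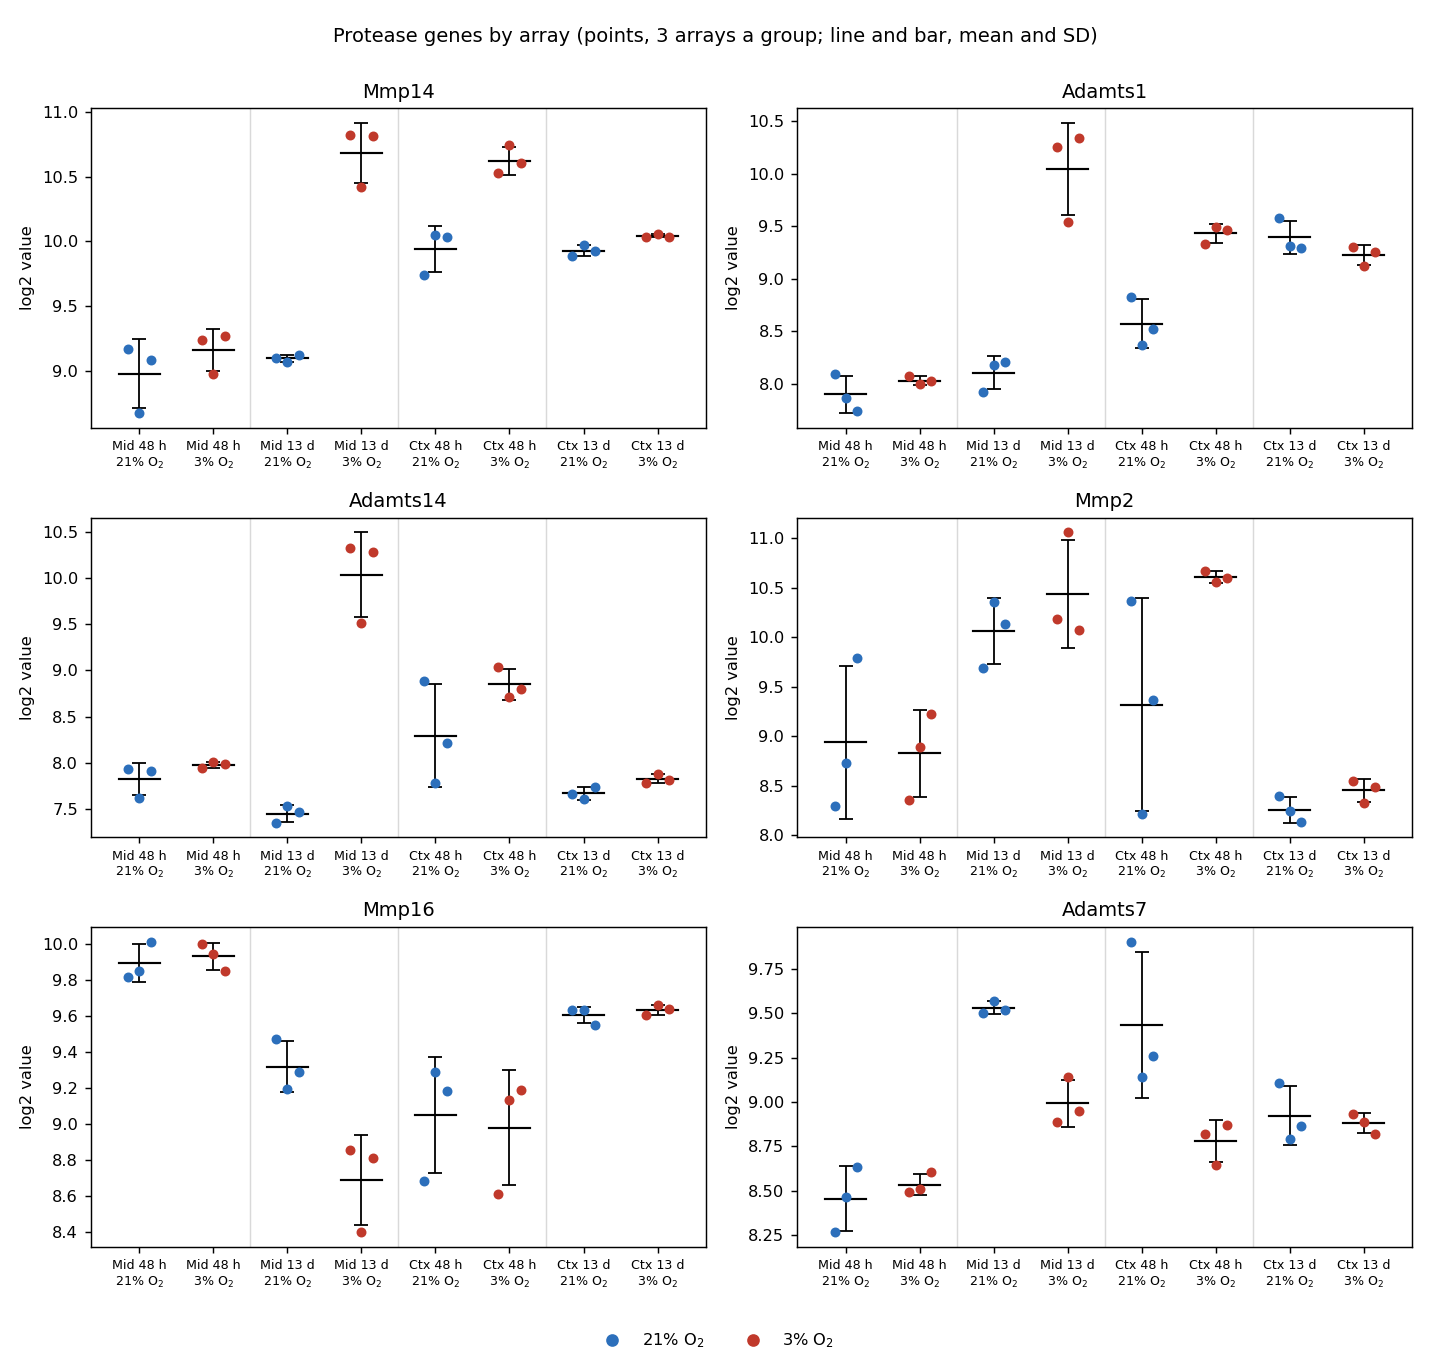
Log2 values (y axis) of 6 protease genes in every array, by group (x axis), with points for 3 arrays a group, a line for the mean and a bar for the SD. Mmp14, Adamts1 and Adamts14 have their highest group means at 3% O2 in midbrain 13 d, with replicate 2 the lowest of those 3 arrays. For Mmp14 that mean (10.69) is close to that of cortex labelled 48 h at 3% O2 (10.62). Midbrain 13 d was on another array run than the other groups. Mmp2 spans 8.22 to 10.37 in cortex labelled 48 h at 21% O2.

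The proteoglycan-cutting ADAMTS enzymes held 3 of the 12 rises of midbrain 13 d among 7 members, Adamts1, Adamts9 and Adamts4, and 0 falls, where 11.2% of all probe sets rose and 12.7% fell. Adamts1, which cleaves aggrecan and versican, read 7.93, 8.18 and 8.21 at 21% O2 and 10.25, 9.54 and 10.34 at 3%. All 3% arrays stood clear of the 21% arrays, with replicate 2 the lowest. The rise was 1.94 ± 0.16, or 3.84-fold (limma, adjusted p 3.87e-08). It went in cortex labelled 48 h from 8.83, 8.37 and 8.52 to 9.33, 9.50 and 9.47, a rise of 0.86 ± 0.16 without overlap (limma, adjusted p 0.00106). It did not pass in midbrain 48 h (0.13 ± 0.16) or in cortex labelled 13 d (-0.17 ± 0.16).

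Adamts9, a versican-cleaving enzyme, read 9.15, 9.16 and 9.17 in midbrain 13 d at 21% O2 and 10.17, 9.92 and 10.22 at 3%. The groups were tight and apart, and the rise was 0.94 ± 0.12 (limma, adjusted p 4.87e-06). Its 5 other probe sets rose too, by 0.73 to 1.35. Adamts4, an aggrecanase, read 9.09, 9.27 and 9.28 at 21% and 10.17, 9.23 and 10.07 at 3%, so that replicate 2 fell inside the 21% range. Its rise of 0.61 ± 0.15 (limma, adjusted p 0.00583) did not hold in a fit of these 6 arrays alone (0.0966) or without replicate 1 at 3% (0.44, adjusted p 0.0539). Adamts5, Adamts8, Adamts15 and Adamts20 did not pass in any oxygen comparison.

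The procollagen N-propeptidases, which trim procollagen before fibrils form, gave the largest response of the family. Adamts14 read 7.35, 7.53 and 7.46 in midbrain 13 d at 21% O2 and 10.32, 9.51 and 10.28 at 3%. The groups were far apart, again with replicate 2 lowest at 3%. The rise was 2.59 ± 0.21, or 6.02-fold (limma, adjusted p 2.87e-08). The cortex arrays labelled 48 h read 8.89, 7.78 and 8.21 at 21% and 9.04, 8.71 and 8.80 at 3%, with overlap through replicate 1 at 21%. That change, 0.55 ± 0.21, did not pass (limma, adjusted p 0.0902), but it did without that array (0.85, adjusted p 0.00167). Adamts3, which also processes the lymphatic growth factor Vegfc, rose in midbrain 13 d by 0.47 ± 0.12 (limma, adjusted p 0.00609), from 9.42, 9.58 and 9.70 to 10.11, 9.85 and 10.16. Of its 15 other probe sets 10 rose and the other 5 did not pass, with all 15 changes positive. In cortex labelled 48 h the Adamts3 change was -0.24 and did not pass. All 15 other probe sets were negative there (-0.38 to -0.05), and 1 of them passed as lower.

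Of the other 9 ADAMTS genes, Adamts16, which can cut fibronectin, rose in midbrain 13 d from 6.69, 6.78 and 6.68 to 7.41, 7.79 and 7.31 (0.79 ± 0.13, limma, adjusted p 0.000123). Here replicate 2 was the highest 3% array. Adamts19 rose by 0.36 ± 0.11 (limma, adjusted p 0.0245), a call lost without replicate 2 or 3 at 3% O2 (adjusted p 0.0811 and 0.0763) or without replicate 1 or 3 at 21% (0.113 and 0.0639). Adamts7, which cuts cartilage oligomeric matrix protein, fell in both comparisons that had calls. Midbrain 13 d arrays read 9.50, 9.57 and 9.52 at 21% and 8.89, 9.14 and 8.95 at 3%, a fall without overlap (-0.54 ± 0.14, limma, adjusted p 0.00693). The cortex arrays labelled 48 h read 9.90, 9.14 and 9.26 at 21% and 8.82, 8.65 and 8.87 at 3% (-0.65 ± 0.14, adjusted p 0.00362). Replicate 1 at 21% was far above the other 5 arrays, and in a fit of these 6 arrays alone the adjusted p was 0.182. Adamts12 in cortex labelled 48 h read 9.30, 7.94 and 8.47 at 21% and 9.95, 8.94 and 8.98 at 3%. Those groups overlapped, and the change of 0.72 did not pass. It passed without replicate 1 at 21% (1.09, limma, adjusted p 0.00281) and without both number 1 arrays (0.76, 0.00798). It also passed with array weights (0.64, 0.007) and the replicate block (0.000258).

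Among the ADAMTS-like genes, Adamtsl3 rose in midbrain 13 d from 6.04, 5.92 and 5.89 to 6.79, 6.42 and 6.98 (0.78 ± 0.13, limma, adjusted p 9.98e-05). It rose in cortex labelled 48 h from 6.24, 6.10 and 6.09 to 7.24, 6.79 and 6.61 (0.74 ± 0.13, adjusted p 0.000505). The arrays did not overlap in either comparison, though the cortex call was lost in a fit of the compared arrays alone (adjusted p 0.0929). Adamtsl4, which binds fibrillin microfibrils, rose in midbrain 13 d by 0.66 ± 0.10 (limma, adjusted p 7.84e-05), from 7.43, 7.35 and 7.31 to 8.19, 7.67 and 8.20. Adamtsl1 fell by 0.35 on the log2 scale (SE 0.07, limma, adjusted p 0.000683), from 7.33, 7.35 and 7.53 to 7.06, 7.05 and 7.03. Its other probe set differed by -0.10 and did not pass.

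The 4 TIMPs did not move together. Timp1, the inducible and soluble inhibitor that acts weakly on membrane-type MMPs, read 7.40, 7.23 and 7.59 in midbrain 13 d at 21% O2 and 9.03, 8.07 and 8.96 at 3%. Replicate 2 was the lowest 3% array, still above the 21% group. The rise was 1.28 ± 0.22, or 2.43-fold (limma, adjusted p 0.000196). The change in cortex labelled 48 h was 0.42 ± 0.22, with overlap (adjusted p 0.265). It passed with array weights (0.52, adjusted p 0.0252). The midbrain 48 h change was 0.11 ± 0.22 and that of cortex labelled 13 d -0.04 ± 0.22.

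Timp2, the partner of Mmp14 in activating Mmp2, fell in both comparisons in which Mmp14 rose. In midbrain 13 d it read 9.95, 9.86 and 9.89 at 21% O2 and 9.16, 8.62 and 9.13 at 3%, with replicate 2 lowest. The change was -0.93 ± 0.10, or 1.91-fold lower (limma, adjusted p 6.65e-07). Timp2 in cortex labelled 48 h read 9.62, 9.82 and 9.82 at 21% and 8.83, 8.94 and 8.84 at 3%, a change of -0.88 ± 0.10 (limma, adjusted p 7.06e-06). Both pairs of groups were well apart. In midbrain 48 h the change was 0.04 ± 0.10 (95% interval -0.16 to 0.24) and in cortex labelled 13 d -0.06 ± 0.10 (-0.26 to 0.14).

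Timp3, the matrix-bound TIMP that also inhibits ADAMTS enzymes and ADAM17, fell in midbrain 13 d from 12.09, 12.20 and 12.15 to 11.54, 11.41 and 11.58 (-0.64 ± 0.14, limma, adjusted p 0.0021). In cortex labelled 48 h it read 10.87, 11.63 and 11.45 at 21% and 10.72, 11.23 and 11.06 at 3%. Replicate 1 was lowest in both groups, and the change of -0.32 ± 0.14 did not pass (adjusted p 0.175). It passed without replicate 1 at 21% (-0.54, limma, adjusted p 0.0018), without both number 1 arrays (-0.40, 0.00659) and with array weights (-0.35, 0.00514). Timp4 read 11.19, 11.01 and 11.30 at 21% and 11.67, 11.27 and 11.65 at 3% in midbrain 13 d. The groups overlapped through replicate 2 at 3%, and 0.36 ± 0.16 did not pass (limma, adjusted p 0.126). It passed with the replicate block (adjusted p 0.00499), with array weights (0.45, 0.00128) and without that array (0.49, 0.0474).

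**Figure D3:**
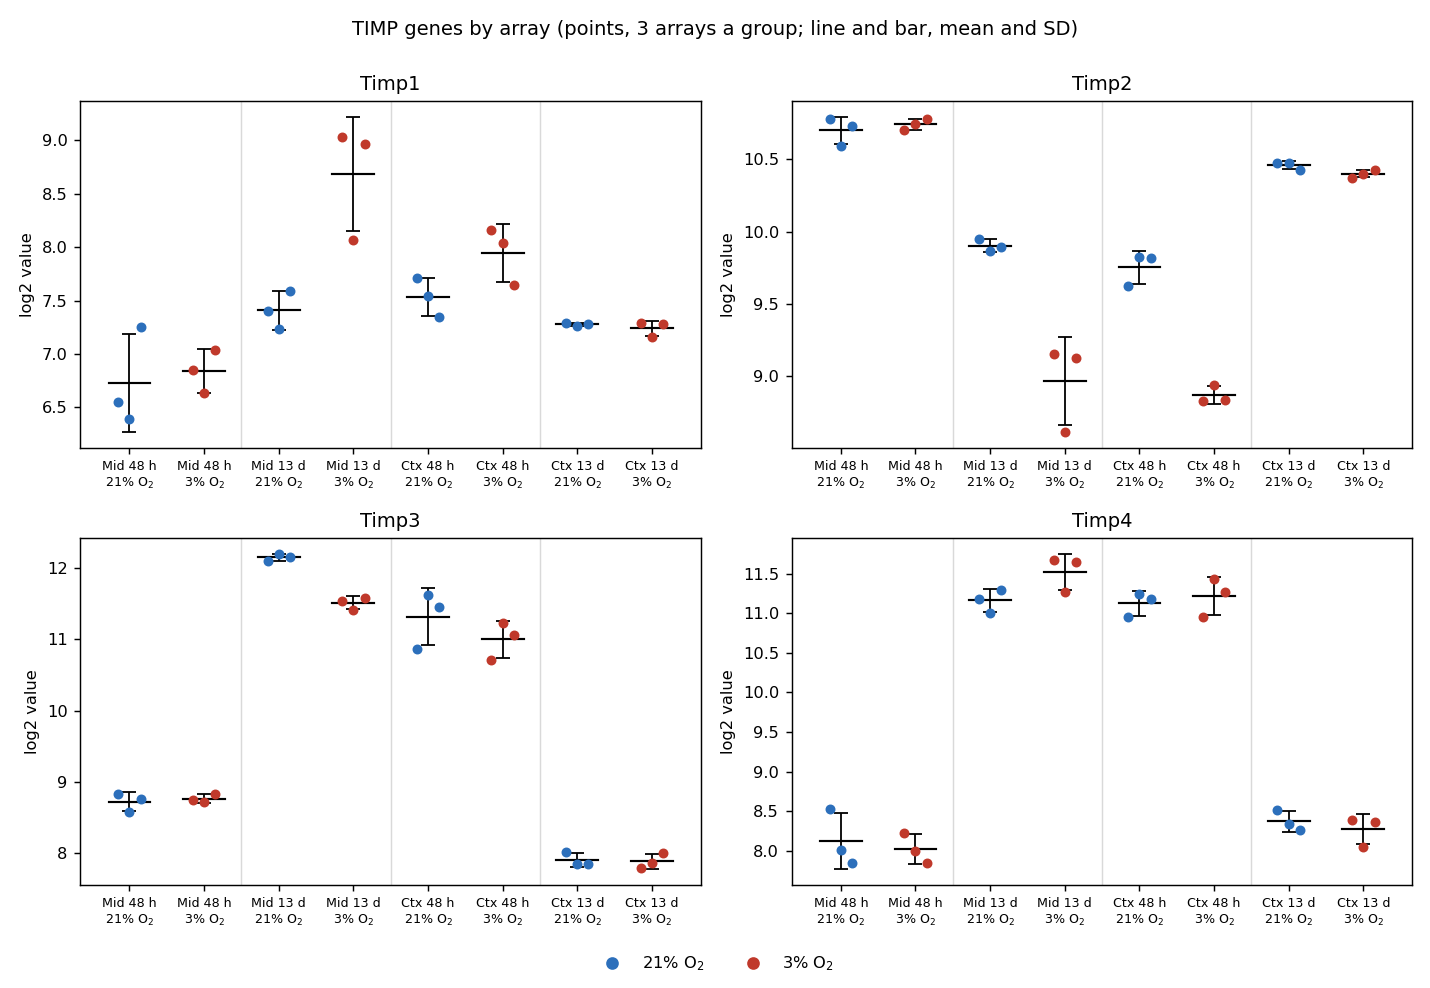
Log2 values (y axis) of the 4 TIMP genes in every array, by group (x axis), with points for 3 arrays a group, a line for the mean and a bar for the SD. Timp1 is highest and Timp2 lowest in groups at 3% O2, and Timp3 lies at 7.79 to 8.83 in 4 groups and at 10.72 to 12.20 in the other 4.

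Genes shared between the comparisons with calls numbered 5, Mmp14, Adamts1 and Adamtsl3 as rises and Adamts7 and Timp2 as falls. They were 29.4% of the 17 in midbrain 13 d and 83.3% of the 6 in cortex labelled 48 h. Over all tested probe sets, 1683 passed in both in the same direction, or 30.1% of 5584 and 58.3% of 2886, so the share of the midbrain calls was at that of the whole array and the share of the cortex calls rests on 6 genes. The comparisons share no arrays, and the sixth cortex gene was Mmp2. Other genes that passed in midbrain 13 d and not in cortex labelled 48 h are compared by the tests of the difference below.

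Genes that act on or with these proteases were counted in lists, to be read beside the 11.2% of all probe sets that rose and the 12.7% that fell in midbrain 13 d. In midbrain 13 d 7 of 9 procollagen and microfibril genes rose and 0 fell, among them Ltbp1 (1.60 ± 0.20, limma, adjusted p 5.63e-06), which tethers latent TGF-beta to the matrix, and Fbn2 (1.17 ± 0.24, adjusted p 0.00121), a fibrillin. Of 11 other inhibitors and clearance genes 6 rose and 0 fell, led by Col18a1 (1.50 ± 0.21, adjusted p 2.41e-05), the collagen that yields endostatin, and Spock1 (0.41 ± 0.10, adjusted p 0.00602), a testican. Of 9 surface partners and inducers 5 rose and 1 fell; Itgav (0.68 ± 0.10, adjusted p 3.72e-05) is an integrin chain and Sdc4 (0.90 ± 0.15, adjusted p 0.000184) a syndecan. Of 10 ADAM genes 4 rose and 0 fell, led by Adam11 (0.59 ± 0.07, adjusted p 5.64e-06) and Adam19 (1.40 ± 0.21, adjusted p 4.48e-05). Of 10 proteoglycan and link genes 3 rose and 0 fell, Hapln4 (0.47 ± 0.09), Acan (0.55 ± 0.11), the aggrecan core protein, and Tnc (0.42 ± 0.11). Of 12 activators, such as furin-like proteases and the plasmin system, 0 passed. Median changes were 0.54, 0.30, 0.49, 0.25, -0.02 and -0.03 in that order, beside -0.01 over all probe sets.

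In cortex labelled 48 h, where 6.25% of all probe sets rose and 6.08% fell, 5 of these lists held fewer calls than in midbrain 13 d, as did the whole array, and the activators held 1 in place of 0. Plaur, the urokinase receptor, rose by 0.54 ± 0.09 (limma, adjusted p 0.000579), as the 1 gene of 12 among the activators. A2m, a broad protease inhibitor, rose by 0.92 ± 0.18 (0.00139), and Spock2 by 0.54 ± 0.17 (0.0384), of 11 inhibitors. Adam19 (1.09 ± 0.21, 0.00155) and Adam12 (0.63 ± 0.19, 0.032) rose of 10 ADAM genes. Sdc4 (0.56 ± 0.15, 0.0201), Hapln4 (0.69 ± 0.09, 2.87e-05) and Ltbp1 (0.67 ± 0.20, 0.0298) were the single genes of their lists. A2m also rose in midbrain 48 h (0.74 ± 0.18, adjusted p 0.0432) and cortex labelled 13 d (1.22 ± 0.18, 0.000571). There Bsg, an inducer of MMPs on neighbouring cells, rose too (0.46 ± 0.07, 0.00113).

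Markers of other cell types were read beside these changes. Of 18 pericyte, fibroblast and meninges markers 7 rose and 1 fell in midbrain 13 d, where 11.2% of all probe sets rose and 12.7% fell. Their mean was 7.32 to 7.36 by array at 21% O2 and 7.62 to 7.84 at 3%, with replicate 2 the lowest at 3%. That low-weight array was also lowest at 3% for the endothelial, neuron, neural stem and radial glia, oligodendrocyte lineage and astrocyte means. Its low place is thus not particular to this list. Postn rose most (2.33), and Col1a1 (0.72), Col1a2 (0.52) and Col3a1 (0.54), which the procollagen list also holds, rose too. Pdgfrb (0.19) and Rgs5 (0.03), markers of pericytes, did not pass. In midbrain 48 h the same list averaged 7.24 at 21% O2 and 7.25 at 3%. Its 6 arrays ran from 6.97 to 7.68, with replicate 3 highest at both oxygen levels. Levels of midbrain 48 h and 13 d come from different array runs. Of 12 endothelial markers 3 rose and 0 fell in midbrain 13 d, beside the same 11.2% and 12.7% of all probe sets. Their mean was 6.63 to 6.71 by array at 21% O2 and 6.87 to 6.93 at 3%, and their median change was 0.02. Microglia markers held 0 calls of 14 in midbrain 13 d, and astrocyte markers 0 of 8. The astrocyte mean was lower at 3% O2, 9.13 to 9.63 by array against 9.66 to 9.89 at 21%. Oligodendrocyte lineage means were lower too (9.29 to 9.71 against 9.80 to 9.90), with 1 rise and 2 falls of 11. Neural stem and radial glia means were 11.04 to 11.23 at 3% against 11.28 to 11.30, with 2 rises and 2 falls of 12. Of 14 neuron markers 2 rose and 3 fell, and their means overlapped. In cortex labelled 48 h 7 of 14 neuron markers fell and 1 rose (median -0.26), 4 of 12 neural stem and radial glia markers fell and 1 rose (median -0.17), and 2 of 8 astrocyte markers fell and 0 rose (median -0.33), where 6.08% of all probe sets fell. Pericyte, fibroblast and meninges markers held 1 rise of 18 there and 0 falls. The part of these cells in the protease changes was not tested.

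**Figure D4:**
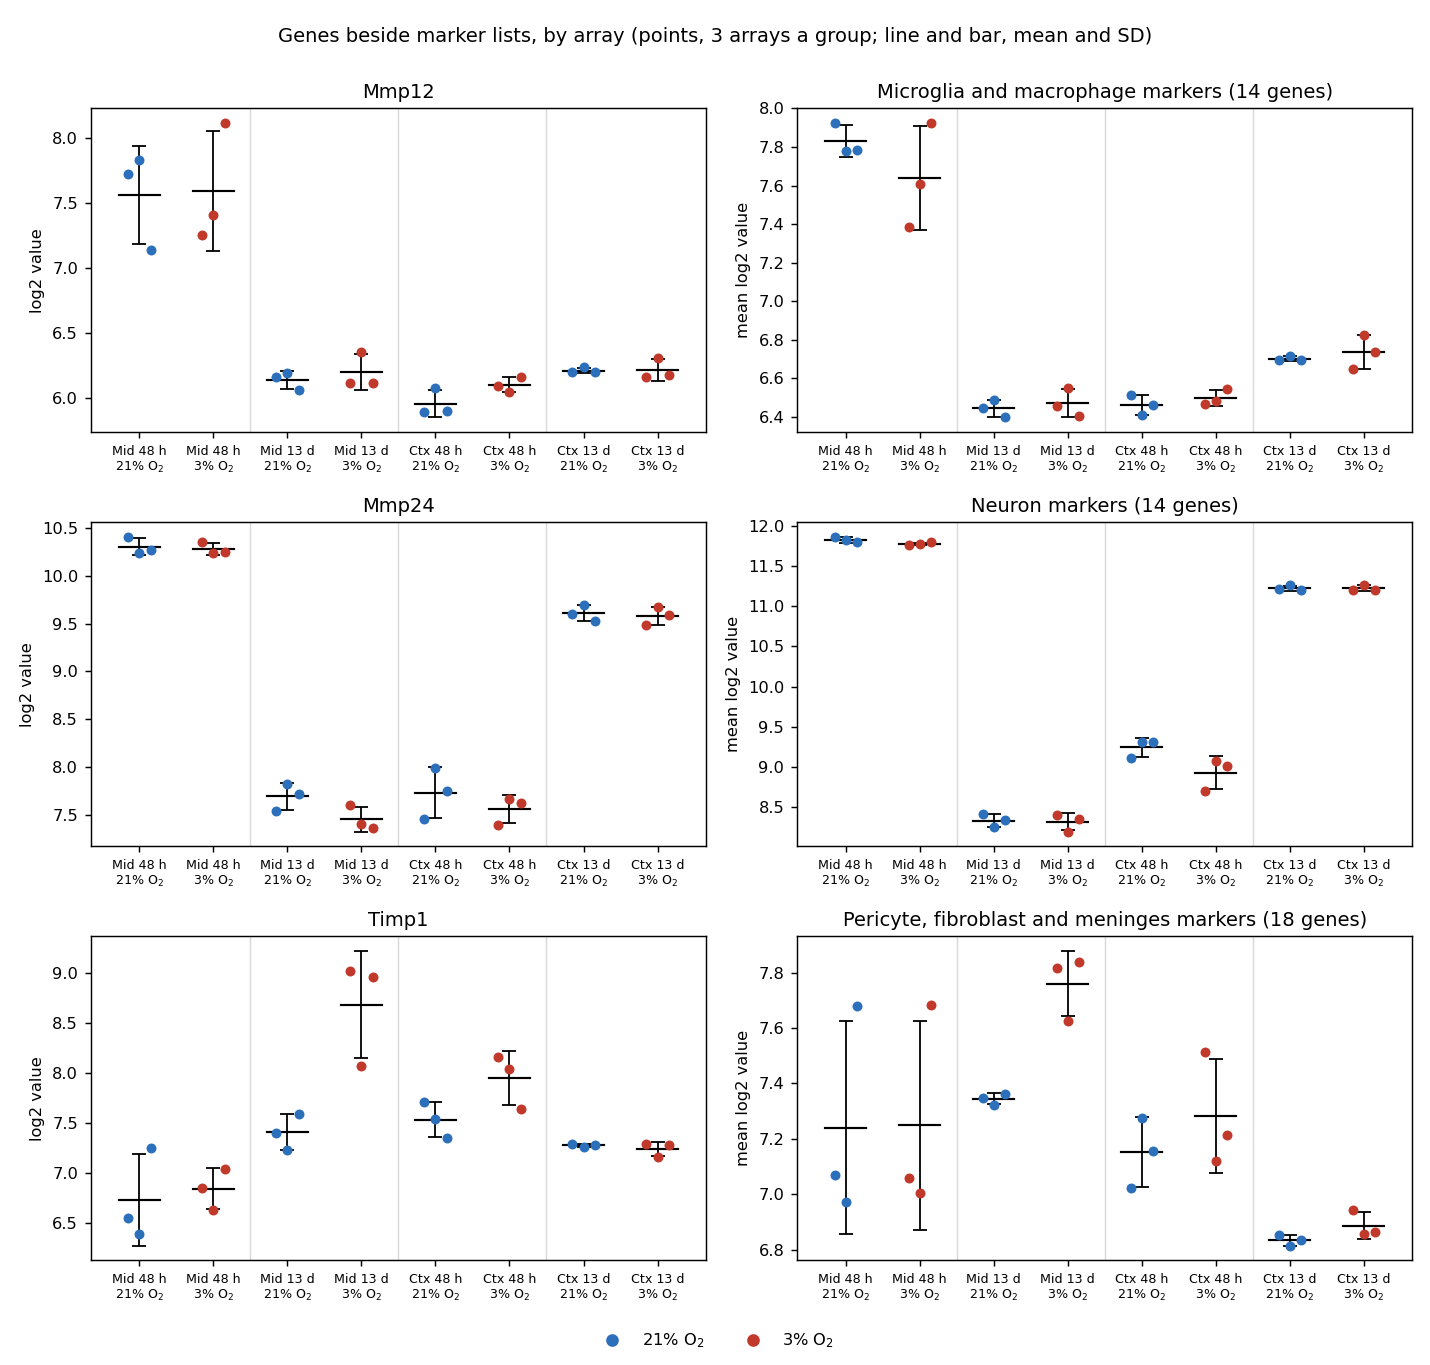
Left, log2 values of Mmp12, Mmp24 and Timp1; right, the mean log2 value of microglia and macrophage (14 genes), neuron (14) and pericyte, fibroblast and meninges markers (18), by group (x axis). Points are 3 arrays a group, lines means and bars SD. Mmp12 and the microglia mean are highest in midbrain 48 h, and Mmp24 and the neuron mean are high in the same 4 groups. Timp1 and the pericyte and fibroblast mean have their highest group means in midbrain 13 d at 3% O2. Midbrain 13 d was on another array run than the other groups.

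Differences between oxygen responses were tested directly. Between midbrain 13 d and 48 h 15 genes (30.6%) differed, 9 with a higher and 6 with a lower response at 13 d, against 15.1% of all probe sets (6.86% higher, 8.24% lower). Adamts14 (2.44 ± 0.29, limma, adjusted p 1.47e-05), Adamts1 (1.81 ± 0.22, 2.12e-05) and Mmp14 (1.41 ± 0.17, 1.72e-05) had the largest positive differences, and Timp2 (-0.98 ± 0.14, 7.65e-05) the largest negative one. Adamts9 (0.88 ± 0.16) and Adamtsl4 (0.70 ± 0.15) also differed. Since the midbrain times were on different array runs, the difference cancels only a run effect that is equal at both oxygen levels.

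Between midbrain 13 d and cortex labelled 13 d 15 genes (30.6%) differed, 10 higher and 5 lower, against 13.5% of all (6.71% higher, 6.8% lower). With the cortex times crossed, so that midbrain 13 d stood against cortex labelled 48 h, 6 (12.2%) differed, 6 higher and 0 lower, against 6.58% of all (3.16% higher, 3.42% lower). Adamts14 went from 2.43 to 2.04 (limma, adjusted p 0.000309), Adamts1 from 2.11 to 1.08 (0.0065) and Mmp14 from 1.47 to 0.91 (0.00302). Adamts9 went from 0.70 to 0.65 (limma, adjusted p 0.0211) and Adamts3 from 0.53 to 0.71 (0.0162). All of these passed either way. Timp2 went from -0.87 to -0.05 (0.9), Timp3 from -0.62 to -0.32 (0.428) and Timp1 from 1.32 to 0.86 (0.11), and these did not pass when crossed. For Timp2 the fall was thus of like size in midbrain 13 d and cortex labelled 48 h, while the rises of Adamts1 and Mmp14 were larger in midbrain 13 d.

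Between cortex labelled 13 d and 48 h 3 genes (6.12%) differed, against 4.13% of all (1.91% higher, 2.23% lower). The response of Timp2 was higher at labelled 13 d (0.82 ± 0.14, limma, adjusted p 0.00224), and those of Adamts1 (-1.03 ± 0.22, 0.0132) and Adamtsl3 (-0.79 ± 0.18, 0.0156) were lower. Between midbrain and cortex at labelled 48 h 3 genes (6.12%) differed, against 5.88% of all (2.89% higher, 2.99% lower). These were Timp2 (0.92 ± 0.14, adjusted p 0.00065), Adamts7 (0.73 ± 0.20, 0.0334) and Adamtsl3 (-0.64 ± 0.18, 0.0366). Without replicate 1, 2 or 3 of midbrain 48 h at 3% O2, Adamts7 (limma, adjusted p 0.0537, 0.0602 and 0.0678) and Adamtsl3 (0.066, 0.0709 and 0.0601) no longer passed. With the cortex times crossed 0 genes differed there (limma), against 0.0214% of all (0.0128% higher, 0.00854% lower), and Adamtsl3 changed sign to 0.14.

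**Figure D5:**
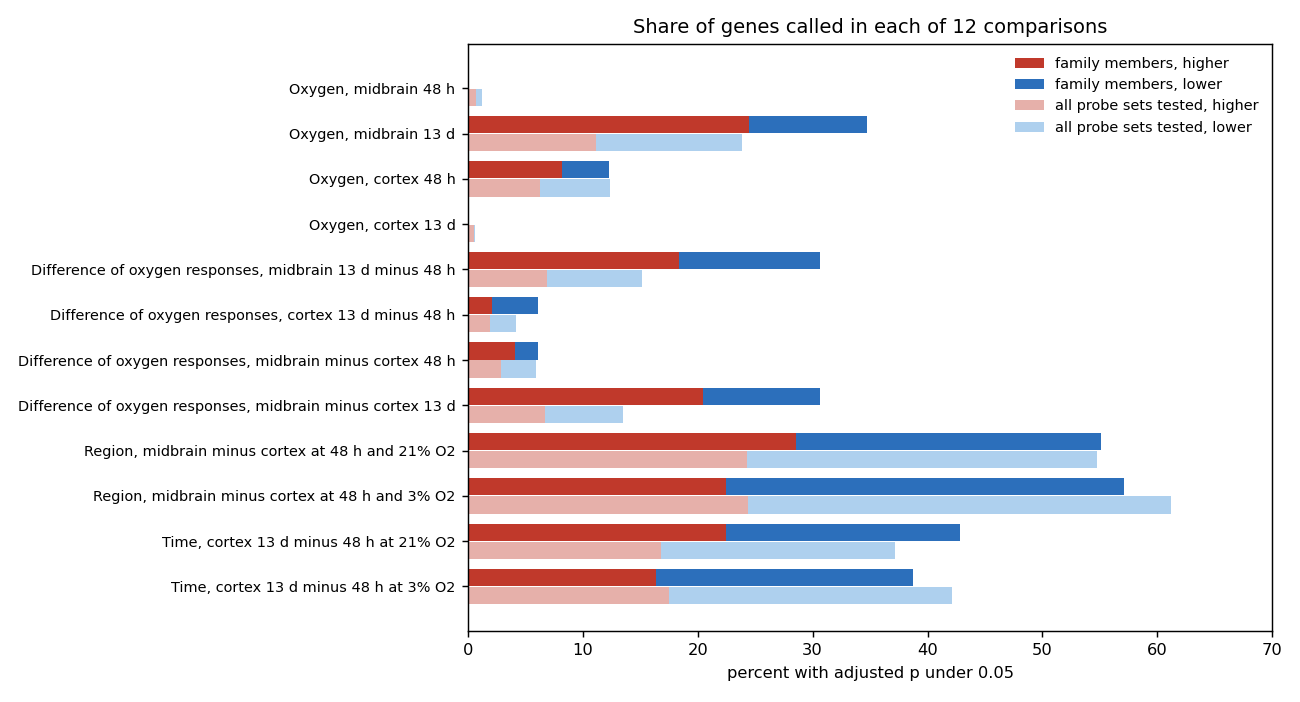
Percent of the 49 genes (dark bars) and of all 23410 tested probe sets (pale bars) with adjusted p under 0.05 (x axis, from 0) in each of 12 comparisons (y axis), red for higher and blue for lower. The members stand above all probe sets in midbrain 13 d and in both differences that use it, and near them elsewhere.

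Levels differed widely between cultures. At 21% O2 the level of Timp3 averaged 8.72 ± 0.14 in midbrain 48 h, 12.15 ± 0.05 in midbrain 13 d, 11.31 ± 0.40 in cortex labelled 48 h and 7.91 ± 0.10 in cortex labelled 13 d. Timp4, the TIMP best known from heart and brain, was 8.12 ± 0.36, 11.16 ± 0.15, 11.12 ± 0.16 and 8.37 ± 0.13 in that order. Both genes were thus high in the same pair of cultures. Astrocyte markers averaged 8.03 to 8.19, 9.66 to 9.89, 8.22 to 9.89 and 8.02 to 8.07 by array in that order, and oligodendrocyte lineage markers 7.89 to 8.16, 9.80 to 9.90, 9.27 to 10.66 and 8.09 to 8.17. Neural stem and radial glia markers averaged 9.85 to 10.21, 11.28 to 11.30, 11.16 to 11.34 and 10.73 to 10.79. All 3 marker means were thus highest in the cultures with high Timp3 and Timp4, though for astrocyte markers replicate 1 of cortex labelled 48 h (8.22) lay just above the low cultures. In midbrain against cortex labelled 48 h, 6 of 8 astrocyte, 9 of 11 oligodendrocyte lineage and 10 of 12 neural stem markers were lower in midbrain, where 30.5% of all probe sets were. The part of these cells in the TIMP levels was not tested. Timp2 ran the other way, at 10.70 ± 0.09, 9.90 ± 0.04, 9.75 ± 0.11 and 10.46 ± 0.03.

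In cortex at 21% O2 21 genes (42.9%) differed between the labelled times, 11 higher and 10 lower at 13 d, against 37.2% of all (16.8% higher, 20.4% lower). Timp3 was 10.6-fold lower at labelled 13 d (-3.41 ± 0.14, limma, adjusted p 3.18e-13) and Timp4 6.75-fold lower (-2.75 ± 0.16, 5.26e-11). Mmp24 was higher by 1.87 ± 0.11 (3.28e-11), Adamts18 by 0.96 ± 0.09 (7.98e-08) and Timp2 by 0.71 ± 0.10 (6.25e-06), while Adamts4 was lower (-1.17 ± 0.15, 3.76e-06). Arrays of the 2 times did not overlap for any of these 6. At 3% O2 19 genes (38.8%) differed, 8 higher and 11 lower, against 42.2% of all (17.5% higher, 24.7% lower), with Timp3 at -3.11 ± 0.14, Timp4 at -2.95 ± 0.16, Mmp24 at 2.02 ± 0.11, Timp2 at 1.53 ± 0.10, Adamts18 at 1.08 ± 0.09 and Adamts3 at 0.99 ± 0.12.

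Between midbrain and cortex labelled 48 h at 21% O2 27 genes (55.1%) differed, 14 higher and 13 lower in midbrain, against 54.8% of all (24.3% higher, 30.5% lower). At 3% O2 28 (57.1%) differed, 11 higher and 17 lower, against 61.2% (24.3% higher, 36.9% lower). Both counts lay near the background. At 21% Timp4 was 8-fold lower in midbrain (-3.00 ± 0.16, limma, adjusted p 3.91e-12) and Timp3 6.02-fold lower (-2.59 ± 0.14, 4.52e-12). Both rested on the labelled time: crossed, against cortex labelled 13 d, Timp4 differed by -0.25 (adjusted p 0.263) and Timp3 by 0.82 in the other direction (9.08e-05). Adamts9 was lower in midbrain either way (-1.44 ± 0.12 and, crossed, -1.48), and so were Adamts4 (-1.63 ± 0.15 and -0.46) and Mmp14 (-0.97 ± 0.12 and -0.95). At 3% Mmp24 (2.72 ± 0.11) and Timp2 (1.87 ± 0.10) were higher in midbrain. Crossed, these differences were 0.70 (limma, adjusted p 2.24e-05) and 0.34 (0.00672).

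Mmp24 read 10.40, 10.23 and 10.27 in midbrain 48 h at 21% O2 and 7.46, 7.99 and 7.76 in cortex labelled 48 h, a difference of 2.57 ± 0.11 (limma, adjusted p 8.42e-14). Crossed, it was 0.69. Neuron markers averaged 11.79 to 11.86 in those midbrain arrays and 9.11 to 9.31 in those cortex arrays, and 14 of 14 were higher in midbrain, where 24.3% of all probe sets were. Mmp12, or macrophage metalloelastase, read 7.72, 7.83 and 7.13 in midbrain 48 h at 21% and 7.25, 7.41 and 8.11 at 3%. All its other arrays lay between 5.89 and 6.35. Microglia and macrophage markers averaged 7.39 to 7.92 in midbrain 48 h and 6.40 to 6.82 elsewhere, and 13 of 14 were higher in midbrain than in cortex at labelled 48 h and 21% O2. Mmp12 was higher by 1.61 ± 0.17 there (limma, adjusted p 6.61e-08) and by 1.35 when crossed. The part of neurons and microglia in these levels was not tested.

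Of the 49 genes, 11 passed in 0 of the 12 comparisons. They were Mmp7, Mmp8, Mmp9, Mmp13, Mmp21, Mmp25, Mmp27, Adamts5, Adamts6, Adamts8 and Adamts13, with oxygen responses from -0.23 to 0.22.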

How the data were processed

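Per the labels' protocols, biotin-labelled cDNA from 100 ng total RNA went onto 24 mouse whole-transcript arrays, with 1 sample on each. The authors deposited log2 values described as normalized, for 28856 probe sets and 24 arrays. The log2 scale was read from the range of the values, and how they were normalized is not stated in any source used here. A change common to every gene would not show, so folds are relative to the typical gene. For arrays, their number limits the precision.

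Probe sets with a symbol in the platform annotation (23410) were tested with limma 3.58.1 in R 4.3.3. It fitted 8 group means to 24 arrays (16 residual degrees of freedom), with eBayes defaults, two-sided tests and Benjamini-Hochberg adjustment within each of 12 comparisons. All 49 gene symbols matched the RefSeq gene table. Genes named were the 6 with the smallest p past the threshold in a comparison, Mmp2, Mmp9, Mmp14, Mmp16, Adamts1 and the TIMPs in each oxygen comparison, and the 2 with the smallest p of each related list. Other members are named for account, after their values were seen. Members and lists were chosen with earlier results of these data known.

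Same-numbered arrays at both oxygen levels moved together in midbrain (correlations 0.121, 0.217, 0.243 for 48 h, then 0.123, 0.421, 0.306 for 13 d). The numbers were thus taken to pair them, from the data and not from the labels. Number 1 of 13 d correlated more with another number (0.164). In cortex, number 3 of labelled 48 h and numbers 1 and 3 of labelled 13 d correlated more with another number. The cortex numbers were not taken as pairs. The main tests used no block. No replicate was a duplicate: the closest pair still differed by an SD of 0.0904. On simulated arrays with 200 changed genes among 23410, the midbrain 48 h test recovered 84% of changes of 0.5 and 96% of changes of 1 on the log2 scale. Promoter sequences came from RefSeq (GRCm38.p6); the files name no build.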

Additional observations from a re-analysis of the deposited data

Results flagged for a closer look

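The oxygen response of 16 genes differed between times or regions by the test of the difference itself (limma, adjusted p under 0.05, n = 3 arrays a group), which gave 36 differences. Values are log2 differences of responses. Between midbrain 13 d and 48 h the response was higher at 13 d for Adamts14 (2.44), Adamts1 (1.81), Mmp14 (1.41), Timp1 (1.17), Adamts9 (0.88), Adamts16 (0.80), Adamtsl4 (0.70), Adamtsl3 (0.68) and Mmp19 (0.65). It was lower for Timp2 (-0.98), Timp3 (-0.68), Mmp16 (-0.67), Adamts7 (-0.62), Adamtsl1 (-0.46) and Mmp11 (-0.34).

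Between midbrain and cortex at labelled 13 d it was higher in midbrain for Adamts14 (2.43), Adamts1 (2.11), Mmp14 (1.47), Timp1 (1.32), Adamts16 (0.83), Adamtsl3 (0.83), Adamts9 (0.70), Mmp19 (0.67), Adamtsl4 (0.56) and Adamts3 (0.53). It was lower for Timp2 (-0.87), Mmp16 (-0.66), Timp3 (-0.62), Adamtsl1 (-0.40) and Mmp11 (-0.35). Both sets use the same 6 midbrain 13 d arrays, so they are not independent.

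Between cortex labelled 13 d and 48 h the response of Timp2 was higher at 13 d (0.82), and those of Adamts1 (-1.03) and Adamtsl3 (-0.79) were lower. Between midbrain and cortex at labelled 48 h those of Timp2 (0.92) and Adamts7 (0.73) were higher in midbrain, and that of Adamtsl3 was lower (-0.64). For Adamts7 and Mmp16 between the midbrain times, for Mmp16, Timp3 and Adamts3 between the regions at labelled 13 d, and for Adamtsl3 between the regions at labelled 48 h, most fits that left out 1 array ended the call.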

How the results depend on the processing

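Counts are of members called. In midbrain 48 h the count of 0 became 1 with quantile normalization, 1 with median centring and 1 with array weights (Mmp11 each time), and it ranged from 0 to 1 when 1 array was left out (Adamtsl2 without replicate 1 at 21% O2). In midbrain 13 d 17 ranged from 16 to 18 with 1 array left out. In cortex labelled 48 h the count of 6 was 3 in a fit of the compared arrays alone, 15 with array weights, 11 with the replicate block and 10 without both number 1 arrays, an alternative chosen after seeing the data. With 1 array left out it ranged from 5 to 11, and 11 came without replicate 1 at 21%. All 6 genes of the main count remained called with the weights, the block, the omission of both number 1 arrays and that of replicate 1 at 21%. In cortex labelled 13 d 0 became 1 with compared arrays alone (Mmp11) and 2 with array weights (Mmp11 and Adamts10), and stayed 0 with 1 array left out.

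Between midbrain times 15 ranged from 11 to 15 with 1 array left out. Between cortex times 3 became 6 with array weights and 7 with the replicate block, and ranged from 3 to 6. Between regions at labelled 48 h 3 became 1 with compared arrays alone, 8 with array weights, 5 with the replicate block, 0 with cortex times crossed and 6 without both number 1 arrays, and ranged from 1 to 7; it was 1 without replicate 1, 2 or 3 of midbrain 48 h at 3% and 7 without replicate 1 of cortex 48 h at 21%. Between regions at labelled 13 d 15 became 6 with cortex times crossed, and ranged from 11 to 14. The replicate block changed no other count by over 1.5 times. In cortex the numbers were not taken to pair the arrays. Correlations by number there were 0.285, 0.417, -0.0437 for labelled 48 h, then -0.0135, 0.229, -0.367 for 13 d. Brighter probe sets measured 18 members, of which they called 10 in midbrain 13 d, 8 between midbrain times, 8 between regions at labelled 13 d, 17 and 16 between regions at 21% and 3% O2, and 12 between cortex times at 3%; all 111 gene results they measured kept direction and call.

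Crossing the cortex times turned the sign of Adamtsl3 in the difference between regions at labelled 48 h (0.14), of Timp3 between regions at 21% and 3% (0.82 and 0.88), of Mmp11 (-0.082 and -0.089), and at 3% of Mmp2 (0.37) and Adamts14 (0.15); crossing compares other arrays. Of 3032 gene values under alternatives, 2806 kept direction and call, 210 lost the call, 9 gained it and 7 turned sign. These values cover 180 gene results and not every member in every comparison, so the tally leaves out calls gained by other members. With array weights, for example, Mmp28 passed in midbrain 13 d (0.28, limma, adjusted p 0.000785) and Adamts12 in cortex labelled 48 h (0.64, 0.007). Signal over background could not be read from normalized values.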

Other observations

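Timp1, Timp4 and Timp3 each lie within the span of a synapsin gene in the RefSeq gene table, Syn1, Syn2 and Syn3 in that order, an arrangement looked up after the values were seen. Synapsins coat synaptic vesicles. In midbrain 13 d Syn1 (-0.71 ± 0.07, limma, adjusted p 2.28e-07), Syn2 (-0.72 ± 0.09, adjusted p 7.99e-06) and Syn3 (-0.54 ± 0.13, adjusted p 0.00516) were all lower at 3% O2. Their TIMPs differed by 1.28 (Timp1), 0.36 (Timp4, not past the threshold) and -0.64 (Timp3). In cortex labelled 48 h Syn1 (-0.37 ± 0.07, adjusted p 0.000885) and Syn3 (-0.61 ± 0.13, adjusted p 0.00425) were lower, and Syn2 (-0.28 ± 0.09, adjusted p 0.0557) did not pass.

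Between midbrain and cortex at labelled 48 h and 21% O2, Syn1 and Syn3 were higher in midbrain, by 2.09 and 2.57, where Timp1 (-0.81) and Timp3 (-2.59) were lower. Syn2 (-0.29) and Timp4 (-3.00) were both lower. These directions rest in part on the labelled cortex time. Crossed, against cortex labelled 13 d, Syn1 and Syn3 stayed higher in midbrain (0.81 and 0.65, limma, adjusted p 1.05e-08 and 0.000466), Timp3 turned to 0.82 higher (9.08e-05), and Timp1 (-0.55, adjusted p 0.0528), Syn2 (-0.15, 0.226) and Timp4 (-0.25, 0.263) did not pass. Between labelled times in cortex at 21% O2, Syn1 and Syn3 were higher at 13 d, by 1.27 and 1.91, where Timp3 was lower (-3.41). These are values side by side, and no relation between host and nested gene was tested.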
